A study of Mus musculus with 9 samples.

Results

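The genes described here encode the desmosome, the junction that anchors keratin filaments at contacts between epithelial cells. They were taken from the gene count table by symbol: the desmosomal cadherins Dsg2, Dsg3, Dsc2 and Dsc3, the armadillo proteins Jup, Pkp1, Pkp2 and Pkp3, the plakin Dsp and the tetraspan membrane protein Perp. All 10 symbols were among the 24421 genes of the table, and 9 of them were among the 13866 genes that passed the filter on low counts. Dsc3 did not pass.

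Polyadenylated RNA was sequenced from HC11, a clonal line of mouse mammary epithelial cells that can be brought to make milk proteins with lactogenic hormones, in 3 groups of 3 libraries. Cells of every group were at passage 30, grew in medium with 10% fetal bovine serum and 10 ng/mL epidermal growth factor, and were confluent after 3 days. The R day1 group then spent 1 day in RPMI medium with 2% fetal bovine serum, 1% penicillin and streptomycin and 5 µg/mL insulin. The D day1 and D day6 groups spent 1 day and 6 days in that medium supplemented with prolactin (5 µg/mL) and the glucocorticoid hydrocortisone (1 µM), renewed every 2 days. A group without the hormones at 6 days was not analysed here, so hormones and time in culture cannot be told apart at D day6. The labels do not say whether replicates were separate cultures. A p-value here sets a difference between groups against the scatter of these samples within groups, and that scatter may be technical. In the main fit all groups share an estimate of that scatter. The D day1 libraries therefore also bear on the p-values of D day6 against R day1.

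In a desmosome, desmogleins and desmocollins of neighbouring cells meet between the membranes. Inside the cell their tails bind plakoglobin (Jup) and the plakophilins, and these hold desmoplakin (Dsp), whose far end binds keratin filaments. In stratified and myoepithelial layers Dsg3, Dsc3 and Pkp1 are typical partners, whereas Dsg2, Dsc2 and Pkp2 are the usual set of simple epithelia, and the mammary duct holds both kinds of layer.

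The smallest library, D day1 replicate 2, had 59621562 counts and the largest, D day1 replicate 1, had 73571270. D day1 replicate 2 stood apart: 1456 tested genes differed there by 2-fold or more from the mean of D day1 replicates 1 and 3, against 2 to 40 genes when each other library was compared with its own group in that way. Across 10195 genes at 5 CPM or more (CPM, the usual unit of counts scaled by library size, here with edgeR's scaling), which are not independent replicates, its deviation from the other libraries of its group had a Spearman rho of -0.77 with summed exon length. The same measure gave 0.68 and 0.79 for D day1 replicates 1 and 3, each set against a mean that includes replicate 2, and -0.30 to 0.44 for the R day1 and D day6 libraries. Values without D day1 replicate 2 are therefore given beside the member tests that involve D day1 and beside most list counts. They are not given for shares or for single genes of the lists. The epithelial markers Epcam, at 587 to 935 CPM, and Cdh1, at 488 to 947 CPM, were present in every library, while the luminal keratin Krt19 lay at 0 to 0.159 CPM.

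Most desmosome genes were lower in the D day6 cells than in R day1, and Perp and Pkp2 were higher. At D day6, Pkp1 had fallen 3.99-fold, Dsg3 3.55-fold, Dsp 2.34-fold, Dsc2 2.05-fold, Jup 1.82-fold and Pkp3 1.50-fold from R day1, and Perp had risen 2.40-fold and Pkp2 1.47-fold. At D day1, Perp was also higher and Dsc2, Dsp and Pkp1 lower, whereas Pkp2 had fallen. Calls are those of edgeR's quasi-likelihood F test with an adjusted p under 0.05 over all tested genes, and each was recomputed in 16 alternative fits at that threshold. At a stricter 0.01, the calls of Dsc2, Dsp and Pkp1 at D day1, of Dsg3 at D day6 and of Dsg2 between the D groups were lost. Dsg2 at D day6 against R day1 was not called in the main fit, but was called higher in 2 of the 16 alternative fits.

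At D day1 against R day1, 1 of 9 members was called higher and 4 lower, where 30.6% of all tested genes were called, 15.4% higher and 15.2% lower. The median log2 change of the members was -0.50, against 0.0045 for all tested genes. At D day6 against R day1, 2 members were called higher and 6 lower (median -0.86), with 50.6% of all genes called, 24.3% higher and 26.2% lower (median -0.0035). At D day6 against D day1, 2 members were called higher and 3 lower (median -0.39), with 36.6% of all genes called, 17.1% higher and 19.5% lower (median -0.035). Without D day1 replicate 2, the members called were 1 higher and 5 lower at D day1, 3 higher and 6 lower at D day6, and 2 higher and 7 lower between the D groups (medians -0.28, -0.86 and -0.62). The shares of all genes called were larger too in that setting: 52.9% (26.6% higher, 26.2% lower), 75.6% (38.0% and 37.7%) and 58.4% (29.9% and 28.4%) in the same order. Both comparisons with R day1 use the same control libraries.

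**Figure D1:**
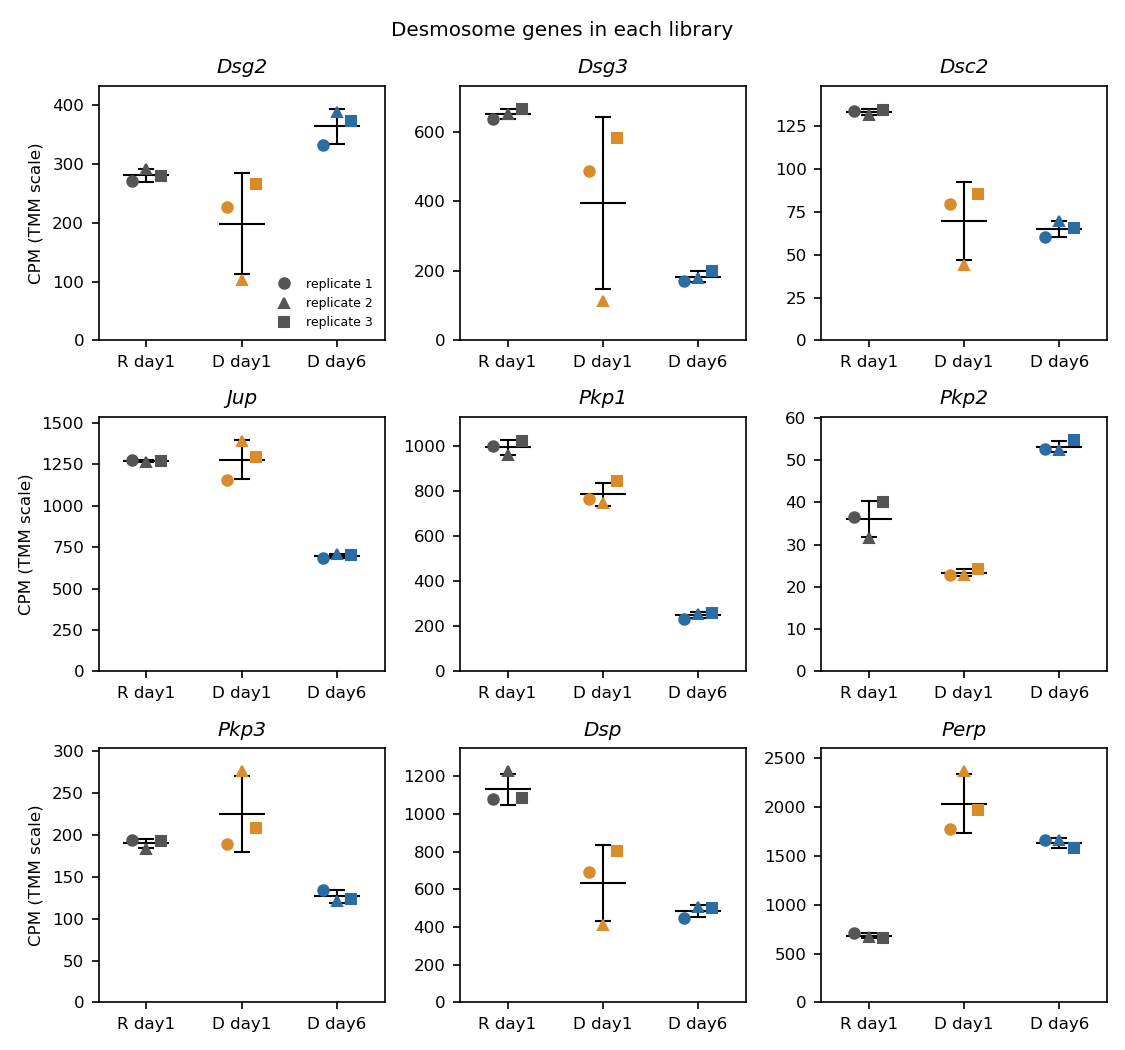
Level of each of the 9 tested desmosome genes in the 9 libraries, in CPM, with 1 panel for each gene; points are libraries, with a colour for each group and a shape for each replicate, and the bars give each group's mean and SD. In D day6 the Pkp1, Dsg3, Dsp and Jup points all lie under those of R day1, the Perp and Pkp2 points lie above them, and D day1 replicate 2 is far under its group in Dsg3.

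**Figure D2:**
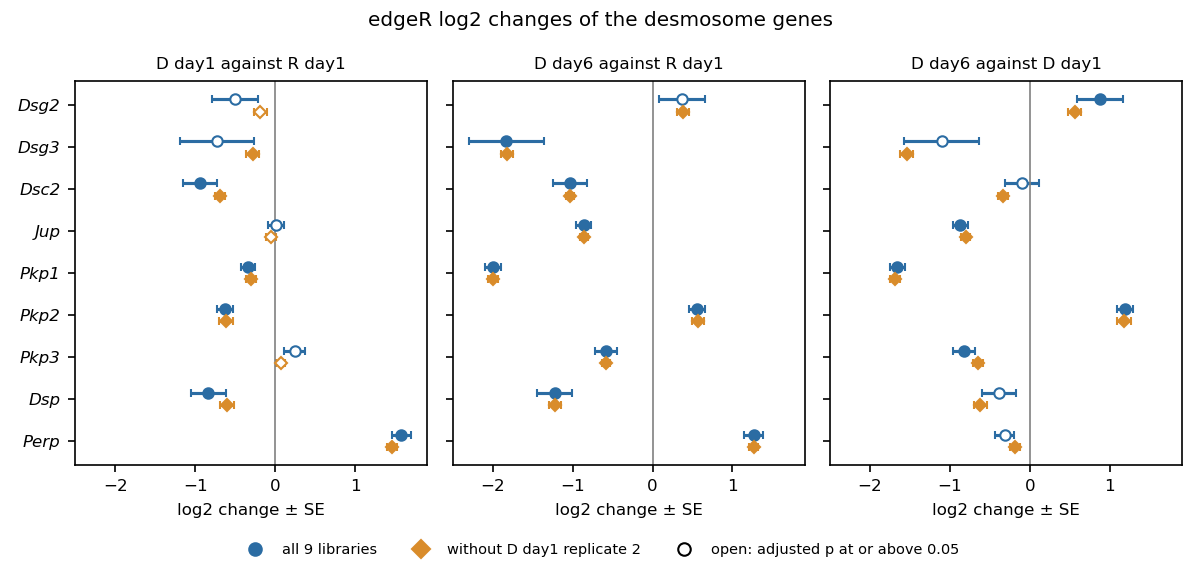
The log2 change of the 9 tested desmosome genes in each comparison from edgeR, with error bars of 1 standard error; circles are the fit of all 9 libraries, diamonds the fit without D day1 replicate 2, and open symbols are not called. Perp and Pkp2 are to the right of 0 at D day6 against R day1, and Pkp1 and Dsg3 are the farthest to the left.

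Of the desmogleins, the cadherins that bind across the gap together with desmocollins, Dsg3 fell at D day6. Dsg2 did not pass the test there with all 9 libraries in the fit, but was called higher in 2 of 16 alternative fits. Both lie on chromosome 18 (mm10), Dsg2 at 20558116 to 20604526 and Dsg3 at 20510304 to 20541310, each on the plus strand. Dsg3, known from stratified epithelium, stood at 638, 652 and 666 CPM in R day1, 489, 114 and 583 CPM in D day1, and 172, 179.6 and 200.4 CPM in D day6 (replicates 1 to 3). All D day6 libraries lay below all R day1 libraries, and D day1 replicate 2 lay under D day6. The log2 change at D day6 was -1.83 (SE 0.475, edgeR adjusted p = 0.011), with the adjusted p at 0.0425 or less in each of 16 alternative fits. Without D day1 replicate 2 it was -1.82 (SE 0.0751, edgeR adjusted p = 5.09e-09). At D day1 it was -0.72 (SE 0.463, adjusted p = 0.265), and without D day1 replicate 2 it was -0.28 with an adjusted p of 0.0141. Between D day1 and D day6 it was -1.10 (adjusted p = 0.0945), and without that library -1.54 (1.02e-07).

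Dsg2, the desmoglein found in simple epithelia and in heart muscle, stood at 271, 292 and 279.7 CPM in R day1, 227, 102 and 267 CPM in D day1, and 332, 388 and 373 CPM in D day6. The 3 D day6 values were above every R day1 and D day1 value. Against R day1 the log2 change at D day6 was 0.37 (SE 0.288, edgeR adjusted p = 0.313). It became 0.38 with an adjusted p of 0.000633 without D day1 replicate 2, and 0.000357 with only the R day1 and D day6 libraries in the fit. Against D day1, Dsg2 was 1.83-fold higher at D day6 (log2 change 0.87, SE 0.289, edgeR adjusted p = 0.0433). That call was lost in 10 of 16 alternative fits and at the 0.01 threshold, with adjusted p values up to 0.115, among them each R day1 or D day6 library left out and D day1 replicate 1 left out, while without D day1 replicate 2 the change was 0.56 (0.000175). The change at D day1 was -0.50 (adjusted p = 0.22) (-0.18 without D day1 replicate 2, 0.078) and was called in none of the alternative fits.

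Dsc2, the desmocollin of simple epithelia and heart, was the one of the 2 member desmocollins that passed the filter on low counts. It lies on chromosome 18 at 20030798 to 20059505, minus strand. Its level was 134, 132 and 135 CPM in R day1, 79.9, 43.9 and 85.4 CPM in D day1, and 60.2, 69.8 and 65.5 CPM in D day6. Every D library was under every R day1 library, and the D groups overlapped. Dsc2 fell by 0.94 on the log2 scale at D day1 (SE 0.214, edgeR adjusted p = 0.0111) and by 1.03 at D day6 (SE 0.215, 0.00344), and both calls held in all 16 alternative fits. Without D day1 replicate 2 the fall at D day1 had a log2 change of -0.69 (8.24e-06). The difference between D day6 and D day1 was -0.10 (adjusted p = 0.736), against -0.34 (0.000682) without D day1 replicate 2.

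Dsc3, a desmocollin of stratified and basal epithelium, lies on the same chromosome at 19960930 to 20002097, minus strand. It had 6, 5 and 2 counts in R day1, 8, 3 and 11 in D day1, and 2, 6 and 0 in D day6. These counts are too low for a comparison: 0 counts in D day6 replicate 3 allow a level of up to 0.0509 CPM, a limit that covers counting error only. Dsc2 with its 27490 summed counts in R day1, against 13 for Dsc3, therefore made up nearly all desmocollin counts of these 2 genes.

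Plakoglobin, encoded by Jup, is shared by desmosomes and adherens junctions. Its mRNA fell by D day6 and did not pass the test at D day1. Jup lies on chromosome 11 at 100368856 to 100397790, minus strand. Its level was 1275, 1263 and 1269 CPM in R day1, 1154, 1388 and 1292 CPM in D day1, and 685, 707 and 702 CPM in D day6. All D day6 libraries were below all others, while R day1 and D day1 overlapped. The log2 change was 0.010 at D day1 (SE 0.095, edgeR adjusted p = 0.945; -0.05 without D day1 replicate 2), -0.86 at D day6 against R day1 (SE 0.0957, 9.1e-05) and -0.87 at D day6 against D day1 (0.000198; -0.81 without D day1 replicate 2).

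Plakophilins bind the cadherin tails and desmoplakin and widen the plaque, and the 3 among the members followed different courses. Pkp1, at chromosome 1, 135871395 to 135919024, minus strand, stood at 998, 959 and 1022 CPM in R day1, 765, 745 and 844 CPM in D day1, and 233, 254 and 259.6 CPM in D day6. The groups did not overlap, and the levels stepped down from R day1 over D day1 to D day6. Pkp1 fell by 0.34 on the log2 scale at D day1 (SE 0.0913, edgeR adjusted p = 0.0221), by 2.00 at D day6 against R day1 (SE 0.0946, 8.55e-07) and by 1.66 at D day6 against D day1 (7.38e-06; a log2 change of -1.69 without D day1 replicate 2). The D day1 call did not survive leaving out R day1 replicate 1, 2 or 3 (0.0769, 0.0529 and 0.086) or D day1 replicate 1 (0.0592), nor a fit of only those 6 libraries (0.089), and it held without D day1 replicate 2 (-0.30, 0.00278).

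Pkp2, the plakophilin of simple epithelia and heart muscle, lies on chromosome 16 at 16213345 to 16272712, plus strand. Its level was 36.6, 31.6 and 40.1 CPM in R day1, 22.8, 22.9 and 24.3 CPM in D day1, and 52.5, 52.3 and 54.7 CPM in D day6. The 3 groups did not overlap: D day1 was the lowest and D day6 the highest. Pkp2 fell at D day1 (log2 change -0.63, SE 0.0983, edgeR adjusted p = 0.00183) and rose at D day6, both against R day1 (0.56, SE 0.0979, 0.00135) and against D day1 (1.19, 2.28-fold, 4.56e-05). The 3 calls held in all 16 alternative fits, and without D day1 replicate 2 the log2 changes were -0.61, 0.56 and 1.18.

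Pkp3, a plakophilin of most epithelia, lies on chromosome 7 at 141078229 to 141090510, plus strand. It stood at 194, 183 and 193 CPM in R day1, 189.6, 276 and 209 CPM in D day1, and 135, 121 and 124 CPM in D day6. The R day1 and D day1 libraries overlapped, and the D day6 libraries were lower than all of them. The log2 change was 0.24 at D day1 (SE 0.135, edgeR adjusted p = 0.204; 0.07 without D day1 replicate 2), -0.59 at D day6 against R day1 (SE 0.136, 0.00622) and -0.83 at D day6 against D day1 (0.00178; -0.65 without D day1 replicate 2).

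Desmoplakin, the plakin that ties the plaque to keratin, fell at both times. Dsp lies on chromosome 13 at 38151294 to 38198577, plus strand, with 9592 bases of summed exons, the longest of the members. Its level was 1081, 1227 and 1086 CPM in R day1, 691, 409.7 and 801 CPM in D day1, and 446, 504 and 500.4 CPM in D day6. Every D library lay below every R day1 library, and D day1 replicate 2 lay under the D day6 libraries. The log2 change was -0.84 at D day1 (SE 0.215, edgeR adjusted p = 0.0184) and -1.23 at D day6 (SE 0.217, 0.00142), the latter called in all 16 alternative fits. The D day1 call did not survive leaving out R day1 replicate 2 (0.0656) or 3 (0.0522) or a fit of only those 6 libraries (0.0559), while without D day1 replicate 2 the change was -0.60 (0.000195). From D day1 to D day6 the change was -0.39 (adjusted p = 0.185), and -0.62 (0.000101) without D day1 replicate 2.

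Perp, a membrane protein that p53 and p63 switch on and that stratified epithelia need for stable desmosomes, went the other way. It lies on chromosome 10 at 18845071 to 18857072, plus strand. Its level was 713, 671 and 662 CPM in R day1, 1773, 2370.0 and 1972 CPM in D day1, and 1664, 1669 and 1579 CPM in D day6. All D libraries were above all R day1 libraries, and the D day6 libraries were below those of D day1. Perp rose 2.99-fold at D day1 (log2 change 1.58, SE 0.123, edgeR adjusted p = 7.08e-05; 1.46 and 9.59e-08 without D day1 replicate 2) and 2.40-fold at D day6 (1.26, SE 0.122, 4.05e-05), and both calls held in all 16 alternative fits. The difference between D day6 and D day1 was -0.32 (adjusted p = 0.0686). It was called with library totals as the only scaling (0.0182), in DESeq2 (0.0276), without D day1 replicate 1 (0.0296) and without D day1 replicate 2 (-0.19, 0.0244).

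D day1 replicate 2 departed from its group by different amounts from gene to gene. Its Dsg3 level was 21.2% of the mean of replicates 1 and 3, Dsg2 41.3%, Dsc2 53.2% and Dsp 54.9%. Pkp1 (92.6%) and Pkp2 (97.1%) lay near that mean, and Jup (113%), Perp (127%) and Pkp3 (139%) lay above it. The 4 low genes have exons summing to 4108 (Dsg3) to 9592 bases (Dsp), against 1900 for Perp, 2891 for Pkp2 and 3045 for Pkp3, but Pkp1 (4486) and Jup (5009) are about as long as Dsg3 and Dsc2 (4416). The part of transcript length in the members' D day1 values was not tested.

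**Figure D3:**
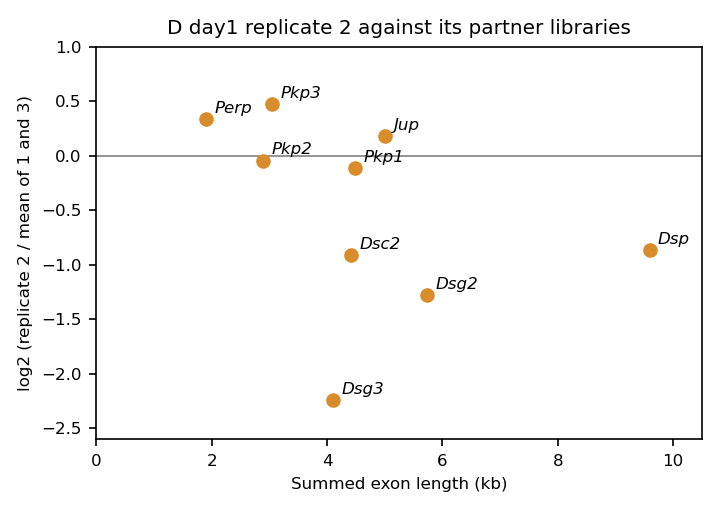
D day1 replicate 2 against the mean of D day1 replicates 1 and 3 for each tested desmosome gene, as a log2 difference plotted over summed exon length. Dsg3, Dsg2, Dsc2 and Dsp lie well under 0 and Pkp3, Perp and Jup above it.

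Levels of different genes were compared per kilobase of summed exon (CPM per kb), since a longer transcript gives more reads. In R day1 the order ran from Perp (359 CPM per kb) over Jup (253), Pkp1 (221), Dsg3 (159), Dsp (118), Pkp3 (62.4), Dsg2 (49.0), Dsc2 (30.2) and Pkp2 (12.5) to Dsc3 (0.0119), and no neighbours among the 9 tested genes overlapped in their libraries. In D day6 Perp (862) and Jup (139) still led, followed by Dsg2 (63.6), Pkp1 (55.5), Dsp (50.4), Dsg3 (44.8), Pkp3 (41.6), Pkp2 (18.4) and Dsc2 (14.8). There, neighbours from Pkp1 down to Pkp3 overlapped, so their ranks are not separated, but Dsg2 stood above all 4 in every library. In D day1, Perp (1073), Jup (255) and Pkp1 (175) led without overlap, and the neighbours from Dsg3 (96.2) to Dsc2 (15.8) overlapped. Those overlaps came with replicate 2. In replicates 1 and 3, Dsg3 (119 and 142) lay above Dsp (72.0 and 83.5), and Dsp above Pkp3 (62.3 and 68.5). Below them, without overlap, lay Dsg2 (39.7 and 46.6) and then Dsc2 (18.1 and 19.3).

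The desmoglein pair stood in opposite order in R day1 and D day6. The ratio of Dsg3 to Dsg2 per kb was 3.29, 3.12 and 3.32 in R day1, 3.00, 1.55 and 3.05 in D day1, and 0.722, 0.645 and 0.750 in D day6. D day6 lay below the other groups in every library, and the low D day1 value was that of replicate 2. At D day6 the ratio was 4.60-fold lower than in R day1 (log2 difference -2.20, SE 0.0711). Dsg2 made up 23.6% ± 0.612 (SD, n = 3) of the summed Dsg2 and Dsg3 level in R day1, 29.6% ± 8.28 in D day1 and 58.7% ± 1.89 in D day6. The sum itself was 208 ± 4.47, 131 ± 75.4 and 108 ± 7.60 CPM per kb. Within D day1 the Dsg2 share ran from 24.7% to 39.2% and the sum from 45.4 to 188 CPM per kb. The highest share and the lowest sum were those of replicate 2.

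Among Pkp1, Pkp2 and Pkp3, Pkp1 held a smaller share and Pkp2 and Pkp3 larger shares in D day6. The related Pkp4, described below, is not in these shares. The ratio of Pkp1 to Pkp2 per kb was 17.6, 19.6 and 16.4 in R day1, 21.6, 21.0 and 22.4 in D day1, and 2.86, 3.13 and 3.06 in D day6. D day1 was above R day1 in every library, and D day6 was below both, 5.91-fold lower than R day1 and 7.18-fold lower than D day1. Pkp1 was 74.7% ± 0.286 of the summed level of Pkp1, Pkp2 and Pkp3 in R day1, 68.2% ± 4.73 in D day1 and 48.0% ± 2.30 in D day6. Pkp2 was 4.21% ± 0.360, 3.15% ± 0.147 and 15.9% ± 0.150 of it (SD, n = 3). Pkp3 was 21.1% ± 0.270, 28.7% ± 4.87 and 36.0% ± 2.34 of a sum that was 296 ± 10.3, 257 ± 13.9 and 115 ± 1.85 CPM per kb.

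**Figure D4:**
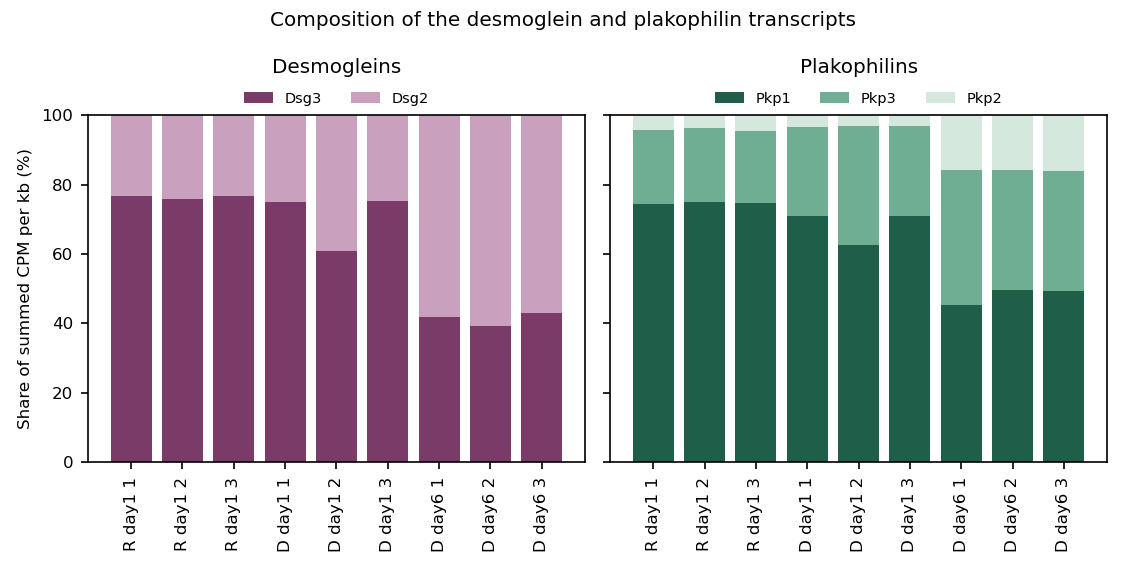
Shares of Dsg2 and Dsg3 (left) and of Pkp1, Pkp2 and Pkp3 (right) in their summed CPM per kb, in percent, with 1 bar for each library. Dsg2 takes the larger share of its pair only in the D day6 libraries. Pkp1 takes under 50% of the plakophilins shown only there.

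The ratio of Pkp3 to Pkp2 was 5.03, 5.51 and 4.56 in R day1, 7.88, 11.5 and 8.14 in D day1, and 2.44, 2.19 and 2.15 in D day6. Pkp1 to Pkp3 was lower in each later group, at 3.50, 3.55 and 3.60, then 2.74, 1.83 and 2.75, then 1.17, 1.43 and 1.42. Plakoglobin over desmoplakin, Jup to Dsp, was 2.26, 1.97 and 2.24 in R day1, 3.20, 6.49 and 3.09 in D day1, and 2.94, 2.69 and 2.69 in D day6. For each of these 5 ratios and each of the 3 comparisons, the groups did not overlap and the exact permutation test (two-sided) gave p = 0.1, also after adjustment over the 5 ratios, which is the smallest p that 3 libraries against 3 allow. So none of the ratio differences could pass 0.05 in this design. Without D day1 replicate 2, the log2 difference at D day1 against R day1 went from -0.42 to -0.10 for Dsg3 to Dsg2, from 0.90 to 0.55 for Jup to Dsp and from -0.57 to -0.37 for Pkp1 to Pkp3, and Jup to Dsp went from -0.53 to -0.18 at D day6 against D day1.

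The stretches before the start of Jup and Dsp are shown because both genes fell at D day6 and the RefSeq promoter table used here held these 2 of the 10 members. Each is the 250 bases before the annotated start (GRCm38.p6, the mm10 assembly), at chr11:100397791-100398040 on the minus strand for Jup and chr13:38151044-38151293 on the plus strand for Dsp, written 5′ to 3′ in the gene's direction. Capitals mark GC boxes, the motif GGGCGG on either strand.
Jup: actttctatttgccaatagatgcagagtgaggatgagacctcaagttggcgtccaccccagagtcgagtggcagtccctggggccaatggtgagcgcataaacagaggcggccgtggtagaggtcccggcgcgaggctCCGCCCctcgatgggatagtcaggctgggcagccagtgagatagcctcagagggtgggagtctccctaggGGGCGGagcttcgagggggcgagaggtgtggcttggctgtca
Dsp: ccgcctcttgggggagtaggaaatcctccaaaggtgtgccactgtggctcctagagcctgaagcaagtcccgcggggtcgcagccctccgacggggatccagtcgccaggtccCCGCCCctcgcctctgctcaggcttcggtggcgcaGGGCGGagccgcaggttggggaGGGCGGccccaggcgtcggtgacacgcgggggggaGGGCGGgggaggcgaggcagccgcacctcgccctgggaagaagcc
Jup held 2 GC boxes and Dsp 4, with a GC content of 62.0% and 72.4% against a median of 52.4% for the 32851 promoters of the table, of which 32.7% hold a GC box. No match on either strand was found in these windows for the AP-1 motif TGANTCA (held by 6.75% of promoters), the E-box CACCTG (17.2%), the Stat5 motif TTCNNNGAA (7.02%), the glucocorticoid receptor core ACANNNTGT (5.84%), the Grhl motif AACCGGTT (0.116%) or TATAAA (12.4%). No searched motif overlapped another in the 2 windows, and a match or its lack describes the letters only.

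Other genes that work with desmosomes were taken as lists chosen with earlier results of these data known, and their counts stand beside the shares of all tested genes called: 30.6% at D day1, 50.6% at D day6 and 36.6% between the D groups. Without D day1 replicate 2 those shares were 52.9%, 75.6% and 58.4%. Of 9 other desmosomal genes, 4 were called higher and 5 lower at D day6 against R day1 (median log2 change -1.03). The largest called rise was that of Dsg4, at 0.0436 ± 0.0502 CPM in R day1 and 0.385 ± 0.0366 CPM in D day6, a very low level. Pkp4 and Evpl are named with their values in view. Pkp4, an armadillo protein related to the plakophilins, rose from 145 ± 3.33 to 301 ± 14.7 CPM (SD, n = 3, log2 change 1.05, edgeR adjusted p = 0.000178). Evpl, the plakin envoplakin, fell from 233 ± 1.07 to 113 ± 0.751 CPM (-1.04, 2.84e-05), and Dsg1b fell from 38.1 ± 1.74 to 1.87 ± 0.0985 CPM (-4.35, 3.09e-05). Mouse Dsg1 copies are near-identical, so the split of reads among them is uncertain. At D day1, 1 of the 9 was higher, periplakin (Ppl, from 134 ± 9.02 to 249 ± 54.5 CPM, 0.89, 0.0026), and 2 were lower, and between the D groups 2 were higher and 4 lower. Without D day1 replicate 2 these counts were 2 and 2, and 2 and 5.

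Keratins, the filaments to which desmoplakin binds, were counted by type. Of 7 basal and stress keratins, 1 rose and 6 fell at D day6 (median -2.12), with Krt16 from 109 ± 6.74 to 4.76 ± 0.460 CPM and Krt15 in the other direction from 6.48 ± 2.41 to 506 ± 68.2 CPM. Of 3 tested keratins of simple epithelium, 2 rose at D day6, Krt7 (log2 change 1.11, edgeR adjusted p = 0.00281) and Krt18 (0.94, 0.00589), and none fell. At D day1 the counts were 3 higher and 1 lower for the basal and stress keratins (3 and 3 without D day1 replicate 2). For the simple keratins they were 1 and 0 at D day1, with 0 higher in a replicate block, in a fit of the 6 libraries, at the 0.01 threshold and without any 1 of the R day1 or D day6 libraries, and with 1 higher and 2 lower of 4 tested without D day1 replicate 2. At D day6 against D day1 the basal and stress keratins had 0 higher and 6 lower, with and without that library, and the simple keratins 1 and 0 (3 and 0 of 4 without it).

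Genes of the other epithelial junctions were counted in the same way. Of 18 tight junction genes, 10 rose and 0 fell at D day6 (median 0.78), 6 and 0 at D day1, and 8 and 0 between the D groups. With D day1 replicate 2 left out these counts were 16 and 1, 10 and 1, and 13 and 0. The largest rise at D day6 was that of the claudin Cldn8, from 0.268 ± 0.0978 to 4.94 ± 0.314 CPM. Of 17 adherens junction genes, which share plakoglobin with the desmosome, 1 rose and 6 fell at D day6 (median -0.17), 3 and 3 at D day1, and 1 and 6 between the D groups. Without that library they were 3 and 10, 5 and 6, and 2 and 10. P-cadherin, Cdh3, fell from 72.5 ± 2.07 to 36.4 ± 2.00 CPM (edgeR adjusted p = 9.09e-05), and E-cadherin, Cdh1, stood at 784 ± 42.1 and 899.8 ± 40.8 CPM (0.266). Of 9 hemidesmosome genes, the anchors to the basement membrane, 1 rose and 5 fell at D day6 (median -0.71), 1 and 3 at D day1, and 0 and 3 between the D groups, against 3 and 6, 3 and 4, and 1 and 5 without D day1 replicate 2. The laminin chain Lama3 fell from 174 ± 1.68 to 30.3 ± 1.87 CPM at D day6.

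Among 18 transcription factors known to act on junction genes of epithelia, 2 rose and 11 fell at D day6 (median -0.83), 3 and 7 at D day1, and 2 and 10 between the D groups. Leaving out D day1 replicate 2 gave 3 and 13, 5 and 7, and 3 and 12. Twist2, with the largest fall, was at 0.482 ± 0.154 CPM in R day1 and 0.0148 ± 0.0146 CPM in D day6, very low levels. Ehf, an epithelial Ets factor, rose 6.08-fold from 307 ± 19.4 to 1867 ± 54.3 CPM (edgeR adjusted p = 6.1e-06). Trp63, the basal cell factor whose targets include Perp, picked with its values in view, stood at 237 ± 7.96 CPM (R day1), 126 ± 42.9 CPM (D day1) and 123 ± 4.28 CPM (D day6), with a log2 change of -0.94 at D day6 (adjusted p = 0.00704). Its libraries ran from 76.9 to 154 CPM in D day1 and from 118 to 126 CPM in D day6. The likeness of the D means therefore says little of a change between those groups. Of 12 targets of p53 and p63, 2 rose and 6 fell at D day6 (median -0.55), 1 and 3 at D day1, and 2 and 5 between the D groups, against 2 and 8, 3 and 6, and 2 and 6 without D day1 replicate 2. Sesn1 rose like Perp (24.6 ± 1.39 to 82.5 ± 5.82 CPM at D day6) and Cdkn1a fell (114 ± 14.6 to 24.6 ± 2.22 CPM). Of 10 sheddases of cadherins and kinases of the desmosome, 2 rose and 2 fell at D day6 (median 0.011), 1 and 1 at D day1, and 3 and 3 between the D groups, and protein kinase C alpha, Prkca, which loosens desmosomes, fell from 117 ± 1.23 to 18.3 ± 1.28 CPM. These 4 of 10 calls at D day6, and the 7 of 17 of the adherens junction list, are under the 50.6% of all genes called. Without D day1 replicate 2 the counts of the sheddase and kinase list were 5 and 5, 2 and 2, and 4 and 4. In that setting neither its D day6 calls nor those of the adherens junction list (3 and 10 of 17) are under the share of all genes, 75.6%.

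**Figure D5:**
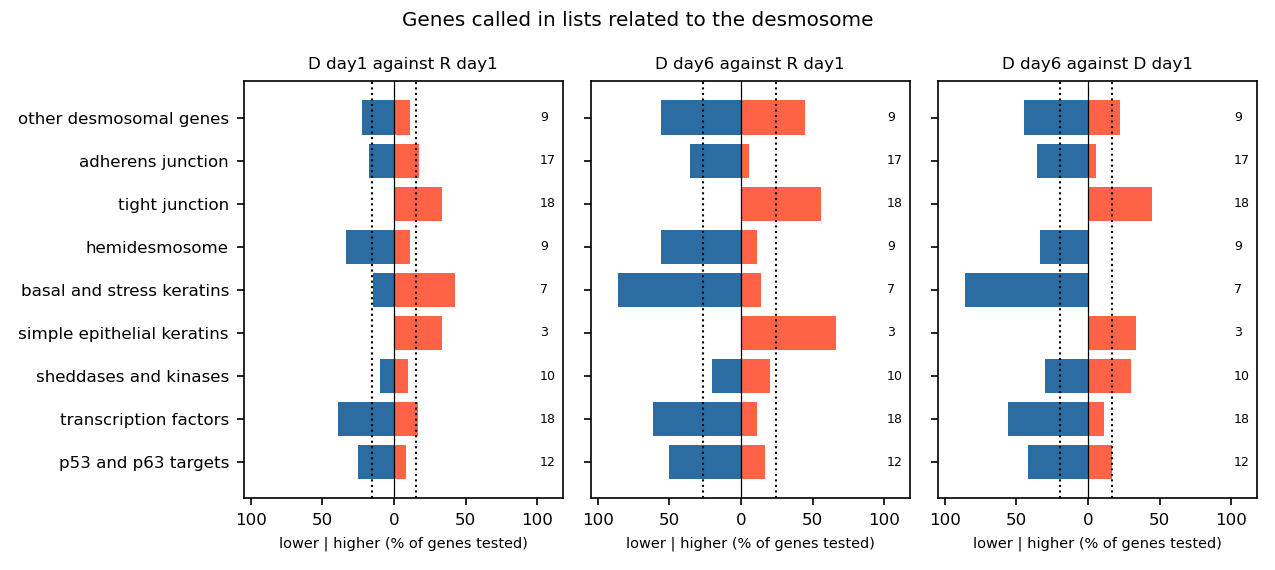
Percent of the tested genes of each list called higher (right) and lower (left) in each comparison, with the number tested at the right of each bar; the dotted lines mark the percent of all tested genes called in that direction. At D day6 against R day1, 6 of the 7 basal and stress keratins are on the lower side, and the 10 tight junction genes called are all on the higher side.

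Markers of other cell types moved with these groups. In bulk RNA, fewer cells of a type and less RNA per cell cannot be told apart. The summed level of 9 basal and myoepithelial markers, of which 2 were under 1 CPM in every library, was 6117 to 6707 CPM in R day1, 5289 to 9791 CPM in D day1 and 1238 to 1356 CPM in D day6. Krt5, Krt14 and Krt17 held most of that sum. Of 8 tested members 1 rose at D day6, Acta2, from 0.117 ± 0.0387 to 1.95 ± 0.631 CPM, a low level. Another 5 fell, those keratins, Trp63 and Myh11, while Mylk and Oxtr were not called. Myh11 was also at a low level, 0.448 ± 0.0542 CPM in R day1 and 0.265 ± 0.0221 CPM in D day6. The summed level of 10 luminal markers was 1647 to 1713, 1537 to 1578 and 2537 to 2779.7 CPM, with Krt19 under 1 CPM. Of its 9 tested members 5 rose and 1 fell at D day6, among them Kit, from 5.19 ± 0.813 to 493 ± 19.0 CPM, and Elf5, down from 7.43 ± 0.144 to 1.41 ± 0.0457 CPM. The sums of 9 fibroblast markers were 77.5 to 90.1, 43.6 to 79.2 and 153 to 267 CPM, with Fap and Thy1 under 1 CPM in all libraries. Of 7 tested fibroblast markers, 3 rose at D day6, Dcn (to 134 ± 44.5 CPM), Col3a1 (to 38.1 ± 9.40) and Lum (to 10.2 ± 2.55), and 4 fell, Col1a1 (from 18.3 ± 2.13 to 0.280 ± 0.0975), Col1a2, Pdgfra and Pdgfrb. Squamous markers, 6 of 10 of them under 1 CPM everywhere, summed to 8.78 to 10.6, 12.5 to 18.1 and 11.002 to 12.0 CPM. Immune markers summed to 49.2 to 57.4, 33.0 to 45.5 and 132 to 144 CPM with 7 of 9 under 1 CPM in every library. Of the other 2, Cd14 rose from 27.8 ± 2.77 to 134 ± 6.92 CPM at D day6 and Cd68 fell from 25.5 ± 1.39 to 4.83 ± 0.827 CPM. Heart muscle markers summed to 58.0 to 65.9, 22.9 to 44.1 and 7.12 to 8.06 CPM with 5 of 6 under 1 CPM, and adipocyte and endothelial markers to 37.2 to 43.3, 36.5 to 47.3 and 7.39 to 15.1 CPM with 7 of 9 under 1 CPM. The heart muscle sum was nearly all Tnnt2, with means of 62.0, 30.6 and 7.45 CPM. The adipocyte and endothelial sum was nearly all Fabp4 (26.8, 32.1 and 8.81 CPM) and Pecam1 (12.7, 9.82 and 2.16 CPM). No marker of any of the 7 lists was at 0 in all 9 libraries, and the part of other cell types in the desmosome values was not tested.

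The authors' deposited table of DESeq2 results gave Perp a log2 fold change of 1.59 (adjusted p = 1.19e-21) at D day1, Dsc2 -0.94 (0.00673), Dsp -0.83 (0.0114), Pkp2 -0.62 (0.000178) and Pkp1 -0.31 (0.00926). In the authors' deposited table for D day6, Dsg2 had a log2 fold change of 0.38 with an adjusted p of 1.66e-08, the highest adjusted p of the 9 members tested here, and Dsc3 one of -0.68 with an adjusted p of 0.634.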

How the data were processed

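Per the file headers, the authors counted reads per gene with featureCounts and deposited whole-number counts, not normalized, with the exon positions and summed exon length of each gene (mm10), and these gave every level and test. The authors' own DESeq2 results against R day1, deposited as tables whose headers name a log2 fold change, its error and p-values raw and adjusted, were used only where they are named. Per the submitters' processing notes, tools included TopHat2 2.0.6 and Bowtie2 2.0.2, Trimmomatic 0.32, featureCounts and HTSeq 0.6.1, SAMtools 0.1.18, and DESeq2 1.16.1 under R 3.3.0, with build mm10. The kit was directional, per the labels' protocols, but the strand setting of the counting and the treatment of reads with several positions are not given in the sources used here. No member shares exon bases with another gene of the table. Another 21 columns of per-sample values in the deposited tables matched no label of these samples and were not used.

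The count test was that of edgeR 4.0.16 (R 4.3.3): filterByExpr on the groups, TMM scaling and the quasi-likelihood F test on all 9 libraries with the group as the only term, adjusted by Benjamini-Hochberg over the 13866 genes tested and called under 0.05. SE is the log2 change divided by the square root of F. The scripts were tested on simulated data. Alternatives were DESeq2 size factors, library totals as the only scaling, no filter, DESeq2 1.42.0, limma 3.58.1 with voom, a replicate block, only the 6 libraries compared, an adjusted p under 0.01 and each library left out; the list counts under each of them were added after seeing the data. Ratios were compared on CPM per kb with an exact permutation test. The members and lists were chosen with earlier results of these data known. By rule all members are named, and of each list the largest called rise and fall in a comparison could be. Pkp4, Evpl and Trp63 are named outside that rule, and some extremes of lists are not named.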

Additional observations from a re-analysis of the deposited data

Results flagged for a closer look

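For 5 of the 9 tested desmosome genes, the change from R day1 was not the same after 1 and 6 days of hormone treatment. This is the edgeR test of the difference between D day6 and D day1, in which 36.6% of all tested genes were called. The log2 difference was -1.66 for Pkp1, 1.19 for Pkp2, -0.87 for Jup, -0.83 for Pkp3 and 0.87 for Dsg2. The Pkp2 values lay below R day1 at D day1 and above it at D day6. Both changes share the R day1 libraries. D day1 replicate 2 is in the D day1 mean of each. Without that library, 2 of the 9 genes were called higher and 7 lower, where 58.4% of all genes were called. The Dsg2 call was lost in 10 of 16 alternative fits and at an adjusted p under 0.01.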

How the results depend on the processing

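Of the log2 changes of members under the alternatives, 421 kept their direction and side of the threshold, 11 became called, 23 lost the call and 4 changed sign. Ratios moved by less than the SD between replicates, but at D day1 that SD holds D day1 replicate 2 itself and so says little of stability. The sign changed for Jup at D day1, with a log2 change of -0.060 with library totals only and -0.052 to 0.082 with each library left out (the lowest without D day1 replicate 2). It also changed for Dsc2 between the D groups, from -0.34 to 0.070 with each library left out (above 0 without D day1 replicate 1, at 0.0070, or replicate 3). Members called lower at D day1 numbered 1 at an adjusted p under 0.01 and 2 with only the 6 libraries compared (2 to 5 with each library left out). Between the D groups, 1 member was called higher with library totals only, at an adjusted p under 0.01 and with only the 6 libraries compared (1 to 2 with each library left out), and 5 were called lower by DESeq2 (3 to 7 with each left out). At D day6 against R day1, 2 to 3 were called higher with each library left out. Over all genes, 2275 were called at D day1 at an adjusted p under 0.01 and 2755 with only the 6 libraries compared (2597 to 7433 with each left out), 5806 to 10634 at D day6 with each left out, and 2884, 3323 and 3425 to 8207 between the D groups. The upper end of each all-gene range is the fit without D day1 replicate 2.

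Replicate numbers are shared by the groups, but same-numbered libraries did not deviate together (r from -0.37 to 0.27 over 9 pairs, against -0.22 to 0.38 over the 18 other pairs). With 3 libraries a group and D day1 replicate 2 standing apart, this check cannot tell whether same-numbered libraries shared a culture or batch. With the replicate block, 1 member was called higher between the D groups.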
